A study of Homo sapiens with 27 samples.

Results

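Loss of PUS7 was examined at the pseudouridine (Ψ) sites of tRNA in HEK293T cells, a human embryonic kidney line. The tRNA was profiled by PRAISE, a bisulfite-type chemistry that makes Ψ read as a deletion, so that the share of covering reads with a deletion (the level, in percent) reports how much of a site is Ψ. Every site in the deposited PUS7 knockout tables was matched to the same tRNA and base in the wild-type tables, and sites with at least 20 reads in all 4 treated libraries were kept. This left 733 of 740 listed sites, namely 700 of 705 in cytosolic tRNA and 33 of 35 in mitochondrial tRNA. The cytosolic sites lie in 249 tRNAs of 48 isoacceptors and at 24 positions in the conventional tRNA numbering. An isoacceptor here is the group of tRNAs named for the same amino acid and anticodon. These libraries make up 6 of the 27 samples of the series.

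The groups were PUS7 knockout cells, with 2 treated libraries and 1 untreated library, and wild-type cells with the same numbers. Small RNA from the cells was first stripped of methyl groups by the enzyme AlkB, used at an AlkB-to-RNA ratio of 2. Of 300 ng of starting RNA, 100 ng became the untreated control. PUS1 knockout and TRUB1 knockout cells, also with 2 treated libraries and 1 untreated library each, were used to ask whether a difference from wild type is also a difference from other knockouts. The labels call the treated pairs technical replicates and name no clone or culture, so the p-values measure technical spread between 2 libraries of a genotype. Median coverage of a cytosolic site was 19473 and 25518 reads in the PUS7 knockout libraries and 14448 and 15076 in the wild-type libraries. For mitochondrial sites it was 468 and 552 reads in the knockout and 475 and 666 in wild type. Background was low at most cytosolic sites, with a median untreated level of 0.336% in the knockout and 0.323% in wild type. It was over 5% at 26 and 25 of the 700 tested sites, in the same order, and reached 43.0% and 44.0%.

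Ψ is the most common modified base of tRNA, made from uridine by pseudouridine synthases. PUS7 is a stand-alone synthase that finds its uridines without a guide RNA. Its yeast counterpart, Pus7, is known for position 13 in the D stem of many tRNAs and position 35 in the anticodon of tRNA-Tyr, and it prefers a short sequence in which the uridine is followed by adenosine. PUS1 is known for positions 27 and 28 of the anticodon stem, PUS3 for 38 and 39, and TRUB1 for position 55 of the T loop, so sites at those positions are not the textbook territory of PUS7. The tables give no bases for the cytosolic tRNAs, which are therefore described by name and position alone.

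Knockout of PUS7 all but emptied a set of sites and left most of the rest where they were. By a quasi-binomial test with moderated dispersion (limma) and Benjamini-Hochberg adjustment over the table, 96 of 700 cytosolic sites fell to at most 0.5 of their wild-type level, which is 13.7% of those tested. Of these, 77 also fell by 10 percentage points or more (11%), while 20 sites rose by 10 points or more (2.86%) and 12 rose to at least 2 times their wild-type level (1.71%). The remaining 584 sites neither fell by fraction nor rose by points, though 1 of them rose by fraction, and 524 of them lay within 5 points of wild type. The losses were at 9 positions and in 24 isoacceptors. They include 11 sites at position 28 of tRNA-Cys-GCA, where PUS1 and TRUB1 knockout were low as well. At 64 of the 96 sites PUS7 knockout kept no more than 1% of the wild-type level. At 16 more it kept no more than 5%, and the median was 0.383%. The losses closest to the threshold were position 20 of tRNA-Pro-TGG-1 and position 28 of tRNA-Cys-GCA-9 and tRNA-Cys-GCA-4, with 35.8%, 40.3% and 47.4% left. The nearest sites outside it that passed on p alone were position 28 of tRNA-Asn-GTT-7, with 63.96% left, and position 20 of tRNA-Gly-TCC-2, with 71.4%. Over all tested sites the median knockout level was 100% of wild type, and the median difference was 0.336 points.

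**Figure D1:**
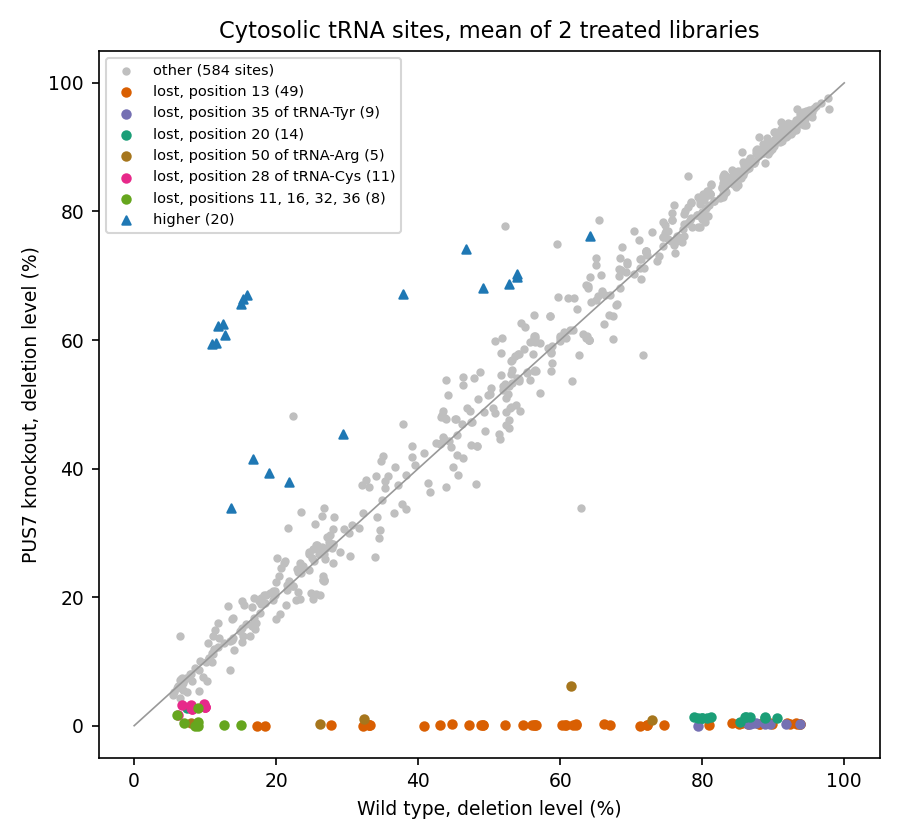
Mean level of the 2 treated libraries in PUS7 knockout (vertical axis, %) against wild type (horizontal axis, %) at 700 cytosolic tRNA sites, one symbol a site, with the line of equality. The 96 lost sites lie along the bottom whatever their wild-type level, and the 20 sites called higher (triangles) lie above the line.

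Position 13 was lost everywhere it was listed. All 49 sites fell, against 13.7% of all sites, and they belong to 14 isoacceptors: tRNA-Asp-GTC, Gln-CTG, Gln-TTG, Glu-CTC, Glu-TTC, Gly-CCC, Gly-TCC, His-GTG, Pro-AGG, Pro-CGG, Pro-TGG, Val-AAC, Val-CAC and Val-TAC. The mean level over the 49 sites was 0.186% ± 0.00466 in the knockout and 64.3% ± 0.00470 in wild type (SD, n = 2). Each SD is of the 2 library averages over the 49 sites, so it does not show the spread at single sites. What separated the tRNAs was their measured wild-type level, which ran from 17.3% to 93.8%, and not what remained, since no site kept more than 0.675% of it. Coverage in the knockout was a median of 7.22 times that of wild type in treated libraries and 0.905 times in untreated libraries. The part of this difference in the wild-type levels was not tested. Position 13 of tRNA-Pro-AGG-1 stood at 0.218% and 0.2001% in the knockout libraries and at 94.2% and 93.3% in the wild-type libraries, the widest gap at any position called (adjusted p = 9.3e-06, limma-moderated test). The highest knockout level at position 13 was that of tRNA-Gly-CCC-2, with 0.535% and 0.582%, against 86.8% and 86.5% in wild type and 0.240% in the untreated knockout library (95% exact binomial intervals for untreated values cover counting error only, here 0.219% to 0.262%). Both treated knockout libraries lay above the untreated knockout library in 41 of the 49 tRNAs, against 97.9% of all 700 tested sites, and the median untreated level at position 13 was 0.0560%.

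The sparsest members of this group were 2 tRNA-Val-AAC isodecoders, tRNAs with the same anticodon and another body. tRNA-Val-AAC-5 had 0 deletions in 2226 and 2628 covering reads of the knockout libraries, and 3 of 35 and 6 of 23 reads in the wild-type libraries (8.57% and 26.1%). A count of 0 allows up to 0.135% and 0.114% in the knockout libraries, at 3 counts per library. tRNA-Val-AAC-4 likewise had 0 deletions in both knockout libraries, against 13.3% and 23.4% in wild type, at least 389-fold lower with 3 counts over the pair. The call for tRNA-Val-AAC-5 rested on few wild-type reads (adjusted p = 0.0441), and without wild-type replicate 1 or replicate 2 the adjusted p was 0.224 or 0.344. Without either wild-type library 45 of the 49 sites were called. In such a fit the spread comes from the knockout pair, and the lone wild-type library is assumed to vary like it.

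The anticodon of tRNA-Tyr lost its central Ψ in every isodecoder. Position 35, the middle anticodon base, fell in all 9 tRNA-Tyr-GTA members, with a median level of 0.302% in the knockout and 87.5% in wild type. tRNA-Tyr-GTA-7 showed the widest gap, with 0.343% and 0.295% in the knockout libraries and 94.0% and 93.6% in wild type (adjusted p = 2.63e-05). tRNA-Tyr-GTA-5 kept the highest knockout level of the 9, 0.393% and 0.320%, against 88.0% and 87.1% in wild type, and its untreated knockout library had 0.282% (0.262% to 0.303%). Both treated knockout libraries of that tRNA thus lay slightly above its untreated library. tRNA-Tyr-GTA-9 had 0 deletions in 1318 and 1076 knockout reads, against 81.8% and 76.9% of only 55 and 65 wild-type reads, at least 633-fold lower (3 counts over both libraries). Its adjusted p of 0.00159 became 0.0609 without wild-type replicate 1 and 0.0617 without replicate 2, and the other 8 kept their call.

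The only other position-35 sites listed, in tRNA-Glu-TTC, did not fall. tRNA-Glu-TTC-1 had 31.1% and 30.2% in the knockout libraries and 29.4% and 29.6% in wild type (adjusted p = 0.209). tRNA-Glu-TTC-2 had 26.9% and 26.3%, against 24.6% in both wild-type libraries (adjusted p = 0.0323, a difference of 2.05 points). Both entries span bases 32 to 35 of the tRNA, so they do not point to a single base. Of the 705 listed cytosolic sites, 326 likewise span more than a single base.

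In the D loop, position 20 fell in all 13 listed tRNA-Leu members. Their wild-type levels ran from 78.8% to 90.6%, and the knockout kept between 0.684% and 1.72% of them. tRNA-Leu-CAG-2 had 1.24% and 1.29% in the knockout libraries and 90.5% and 90.6% in wild type (adjusted p = 2.29e-06). tRNA-Leu-CAA-2, the smallest change among the 13, still had 1.29% and 1.38%, against 79.2% and 78.4% in wild type (adjusted p = 8.54e-06). The untreated knockout library had 0.702% and 0.565% for these tRNAs, below both treated libraries, as at all 32 position-20 sites. Of the 19 listed position-20 sites outside tRNA-Leu, 1 was called. It was tRNA-Pro-TGG-1, with 2.46% and 2.90% in the knockout and 7.71% and 7.28% in wild type, or 35.8% of wild type left (adjusted p = 0.0105, and 0.168 or 0.143 without a wild-type library).

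Position 50, in the T stem, split by amino acid. All 5 tRNA-Arg sites fell by fraction, and none of the 3 tRNA-Cys and 2 tRNA-Asn sites did. tRNA-Arg-CCT-4 had 0.959% and 0.937% in the knockout libraries and 73.2% and 72.6% in wild type (adjusted p = 4.33e-06). tRNA-Arg-CCT-5 had 0.217% and 0.251%, against 26.6% and 25.7% in wild type, and tRNA-Arg-CCG-2 had 0.954% and 0.981%, against 32.3% and 32.4%. These 3 kept between 0.895% and 2.99% of their wild-type level. tRNA-Arg-CCT-3 fell by less than 10 points from a low wild-type level, with 0.393% and 0.379% in the knockout and 7.95% and 8.16% in wild type, or 4.80% left (adjusted p = 6.41e-05). tRNA-Arg-ACG-2 kept the most, 6.52% and 5.98% in the knockout against 62.4% and 60.7% in wild type, or 10.2%. Its untreated level also differed, at 2.90% (2.81% to 2.99%) in the knockout and 0.948% (0.916% to 0.981%) in wild type, and the part of this background in what remained was not tested.

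The 5 other position-50 sites stayed between 89.6% and 102% of wild type. tRNA-Cys-GCA-15 had 50.8% and 55.8% in the knockout libraries and 54.7% and 51.7% in wild type, over an untreated level of 21.4% in the knockout and 22.0% in wild type. tRNA-Cys-GCA-16 had 23.7% and 29.7%, against 25.9% and 26.3% in wild type. tRNA-Cys-GCA-4 and tRNA-Asn-GTT-6 averaged 8.73% and 6.18% in the knockout, against 9.08% and 6.19% in wild type. tRNA-Asn-GTT-9 averaged 4.84% ± 0.544 in the knockout and 5.41% ± 0.0580 in wild type. The adjusted p-values of these 5 ran from 0.555 to 0.999.

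**Figure D2:**
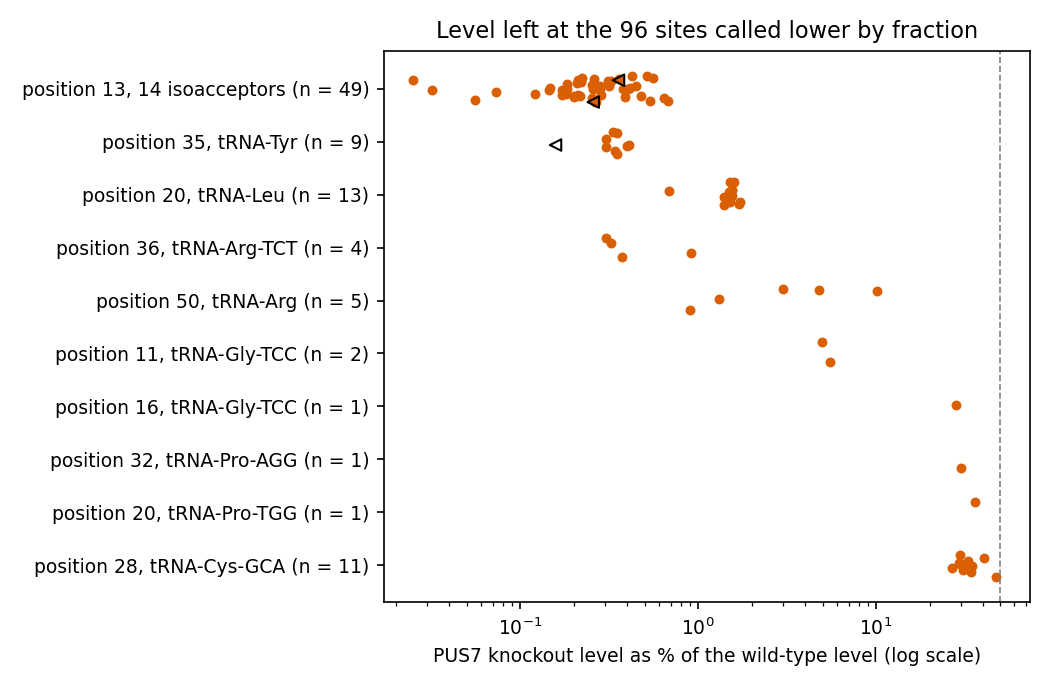
Knockout level as a percentage of the wild-type level (log scale) at the 96 sites called lower by fraction, one dot a site, by position and tRNA. Open arrowheads are the 3 sites with 0 deletions in the knockout, drawn at the upper limit of 3 counts, and the dashed line is the threshold of 50%. Position 13 and position 35 of tRNA-Tyr lie under 1%, position 20 of tRNA-Leu under 2%, and position 28 of tRNA-Cys between 26.7% and 47.4%.

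Counting what was left, not only points lost, added 19 sites with wild-type levels from 6.08% to 9.99%. The listed sites are those of wild type, and their lowest tested wild-type level was 5.41%. A site below that in wild type and higher in the knockout would not be seen, which favours falls at such low levels. Of the 19, 11 are at position 28 of tRNA-Cys-GCA, where PUS1 and TRUB1 knockout were low too, as given below. Also among the 19 are 2 sites at position 36 of tRNA-Arg-TCT, the last anticodon base. Of its 4 listed sites 2 fell by 10 points and all 4 fell by fraction, to between 0.303% and 0.916% of wild type. tRNA-Arg-TCT-1 had 0.152% and 0.124% in the knockout libraries and 15.5% and 14.6% in wild type (adjusted p = 0.00136). tRNA-Arg-TCT-5 had 1 deletion in 1065 reads and 0 in 1759 in the knockout, against 8 of 61 and 11 of 91 in wild type (adjusted p = 0.0247). tRNA-Arg-TCT-2 had 1 in 1820 and 0 in 2672, against 23 of 216 and 23 of 308 (adjusted p = 0.0144). At this position none of the 4 tRNAs had both treated knockout libraries above the untreated one. Without either wild-type library 0 of 4 were called, with adjusted p-values of 0.0576 and 0.0569 for tRNA-Arg-TCT-1 and from 0.161 to 0.295 for the other 2 named here. The difference for tRNA-Arg-TCT-1 was -14.9 points with all libraries and -14.4 or -15.4 points without a wild-type library.

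The same site behaved differently in the other knockouts. Position 36 averaged 0.0600% over the 4 tRNA-Arg-TCT members in PUS7 knockout, 56.7% in PUS1 knockout, 23.4% in TRUB1 knockout and 11.3% in wild type. All 4 were lower in PUS7 knockout by the direct test, with a largest adjusted p of 0.000305 against PUS1 knockout and 0.00629 against TRUB1 knockout. In all 4 tRNAs both TRUB1 knockout libraries lay above both wild-type libraries, as at 25.3% of all 700 sites, and that difference was not tested.

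tRNA-Gly-TCC-2 lost 3 listed sites of its D arm, at graded depth. Position 13 kept 0.675% of wild type, with 0.303% and 0.302% in the knockout and 45.2% and 44.4% in wild type. Position 11 kept 5.52%, with 0.489% and 0.509% against 9.02% and 9.07% (adjusted p = 2.56e-05), and position 16 kept 28.2%, with 1.69% and 1.73% against 6.42% and 5.74% (adjusted p = 0.00115). Position 20 of the same tRNA kept 71.4%, with 5.28% and 5.33% against 7.64% and 7.22%, and was not called. The share kept was thus lowest at position 13 and grew with distance from it in the order 11, 16 and 20. tRNA-Gly-TCC-3 showed the same pair at positions 13 and 11, with 0.536% and 5.00% left. Position 32 of tRNA-Pro-AGG-1, in the anticodon loop of a tRNA that also lost position 13, fell to 2.87% and 2.53% in the knockout, against 8.87% and 9.19% in wild type (29.9% left, adjusted p = 0.00539, and 0.115 or 0.126 without a wild-type library).

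The last group, position 28 of tRNA-Cys-GCA, differed from wild type but not in the same way from other knockouts. By fraction 11 of 16 sites fell, to between 26.7% and 47.4% of wild type. tRNA-Cys-GCA-11 had 2.74% and 3.11% in the knockout libraries and 10.2% and 9.75% in wild type (adjusted p = 0.00379). At those 11 sites the median level was 2.94% in PUS7 knockout, 3.04% in PUS1 knockout, 2.76% in TRUB1 knockout and 8.10% in wild type. By the direct test against TRUB1 knockout, 0 of the 11 differed (adjusted p from 0.281 to 0.773, differences from 0.0958 to 0.369 points), and against PUS1 knockout 1 did, tRNA-Cys-GCA-4, which was higher in PUS7 knockout by 1.25 points (adjusted p = 0.0160; the lowest difference was -0.633 points).

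The wild-type libraries stood apart at these 11 sites in other measures too. The untreated level had a median of 0.656% in PUS7 knockout, 0.622% in PUS1 knockout and 0.726% in TRUB1 knockout, against 0.0713% in wild type. Treated coverage was a median of 5.87 times that of wild type in PUS7 knockout, but 0.999 times that of PUS1 knockout and 0.755 times that of TRUB1 knockout. Without either wild-type library none of the 11 were called, and 8 were under the fit with a replicate block. The entries cover bases 26 to 28 at 9 of the 11 sites and 27 to 29 at the other 2, and 5 further tRNA-Cys-GCA members kept between 65.6% and 111% of wild type at position 28. The part of the wild-type libraries in this difference was not tested.

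**Figure D3:**
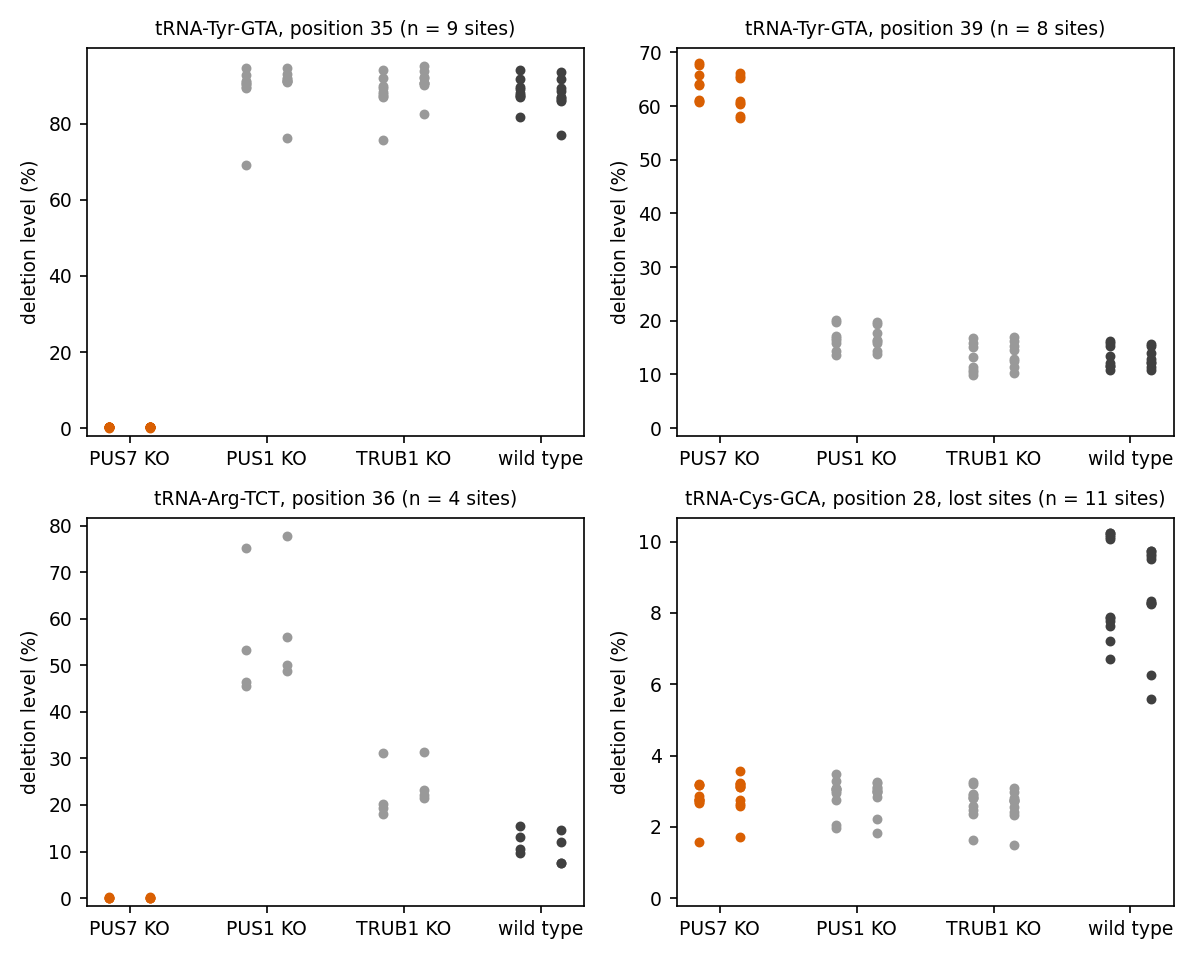
Level in each treated library (vertical axes, %) at 4 sets of sites in PUS7 knockout, PUS1 knockout, TRUB1 knockout and wild type; the pair of columns of a genotype is its 2 libraries and each dot is a tRNA. Position 35 of tRNA-Tyr and position 36 of tRNA-Arg-TCT are near 0 in PUS7 knockout alone among the 4 genotypes. Position 39 of tRNA-Tyr is high in PUS7 knockout. At position 28 of tRNA-Cys the means of the 2 libraries lie between 1.55% and 3.37% in the 3 knockouts.

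Set against the other knockouts directly, the lost sites other than tRNA-Cys were again low in PUS7 knockout. These comparisons share the PUS7 knockout libraries with the one above, so each is given by its own values. The 85 lost sites other than position 28 of tRNA-Cys had a median of 0.260% in PUS7 knockout, 70.8% in PUS1 knockout, 69.6% in TRUB1 knockout and 72.2% in wild type. Of all 96 lost sites, 85 were lower by fraction against PUS1 knockout and 85 against TRUB1 knockout. The shares over all tested sites were 13.5% of 702 and 12.1% of 701. The exceptions are the 11 sites at position 28 of tRNA-Cys, which were set apart with these values known. All 96 were picked as low in the same PUS7 knockout libraries, so these counts are not independent support.

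Rises came in tRNAs that had lost a site elsewhere. The 20 sites called higher lie in 16 tRNAs of 6 isoacceptors, and each of those tRNAs had a lost site. Such tRNAs number 91 of 249 and hold 215 of the 604 sites that were not lost (35.6%). The remaining 389 of the 604 sites, in 158 tRNAs without a loss, held 0 of the 20. Their differences ran from -13.9 to 9.94 points, and those of the 215 sites from -29.0 to 51.15 points. The median difference was 1.52 points over the 215 sites and 0.426 points over the 389.

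Position 39 of tRNA-Tyr, 4 bases from the lost Ψ at 35 and known as a PUS3 position, made the largest rise. All 8 listed members rose, with a median level of 62.3% in the knockout and 12.7% in wild type. tRNA-Tyr-GTA-3 had 67.6% and 65.3% in the knockout libraries and 15.3% in both wild-type libraries (adjusted p = 0.000305). Knockout means ran from 59.4% to 67.0% and wild-type means from 10.9% to 15.9%, so that both knockout libraries lay above both wild-type libraries, as they did at 25.7% of all tested sites. In PUS1 knockout tRNA-Tyr-GTA-3 had 19.6% ± 0.2801 at this position and in TRUB1 knockout 15.2% ± 0.105. Its untreated level was 0.152% in the knockout and 0.247% in wild type. All 8 kept their call without either wild-type library, with the largest adjusted p at 0.0355.

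tRNA-Arg-TCT-1, tRNA-Arg-TCT-2 and tRNA-Arg-TCT-3 rose on both sides of their lost position 36. tRNA-Arg-TCT-1 had 69.1% and 67.0% at position 28 in the knockout libraries, against 49.8% and 48.6% in wild type (adjusted p = 0.0125). At position 39 it had 47.6% and 43.2%, against 31.1% and 27.7% (adjusted p = 0.0386), and tRNA-Arg-TCT-2 had 43.5% and 39.5%, against 16.2% and 17.3% (adjusted p = 0.0125). tRNA-Arg-TCT-5, which also lost position 36, averaged 48.2% at position 39 in the knockout and 22.3% in wild type and was not called (adjusted p = 0.104). tRNA-Arg-TCT-4, which has no listed site at position 36, averaged 81.9% ± 1.45 at position 39 in the knockout and 80.0% ± 1.42 in wild type. tRNA-Arg-ACG-2, which lost position 50, had 74.8% and 73.6% at position 39 in the knockout, against 45.5% and 48.0% in wild type (adjusted p = 0.00244).

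The other rises were in tRNAs that lost position 13. tRNA-Gln-CTG-5 had 67.3% and 67.2% at position 28 in the knockout libraries, against 38.3% and 37.3% in wild type (adjusted p = 0.000496). tRNA-Val-AAC-1 had 69.5% and 67.9% at position 28, against 53.4% and 52.2% (adjusted p = 0.00562). tRNA-Val-TAC-3 had 36.6% and 31.3% at position 27, against 12.5% and 14.7% (adjusted p = 0.0328). tRNA-Val-TAC-4 had 75.8% and 76.7% at position 28, against 64.9% and 63.4% (adjusted p = 0.0124), and 38.5% and 37.5% at position 55, against 21.5% and 22.1% (adjusted p = 0.00236).

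Most rises outside tRNA-Tyr lost their call when a wild-type library was left out, with differences that moved little. Without replicate 1, as without replicate 2, only 9 of the 20 calls were made, the 8 at position 39 of tRNA-Tyr and position 28 of tRNA-Gln-CTG-5 (adjusted p = 0.0330 and 0.0357). Without PUS7 knockout replicate 1 or 2 the count was 28 or 23. For the other named rises the adjusted p without a wild-type library lay between 0.0609, at position 39 of tRNA-Arg-ACG-2, and 0.291, at position 27 of tRNA-Val-TAC-3. The difference at position 39 of tRNA-Arg-ACG-2 was 27.5 points with all libraries and 26.2 or 28.7 points without a wild-type library, and that of tRNA-Arg-TCT-2 was 24.7 points and 24.2 or 25.3 points.

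**Figure D4:**
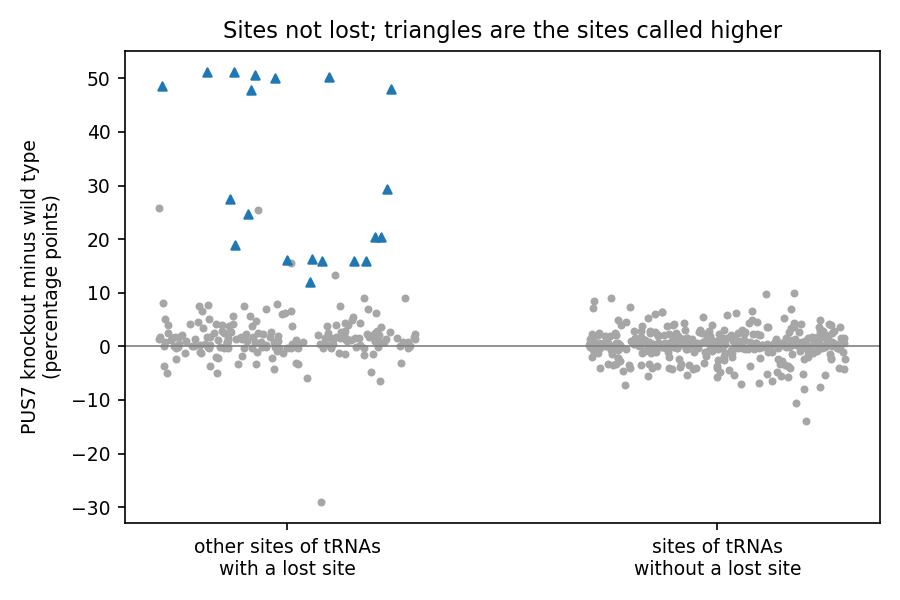
Difference between PUS7 knockout and wild type (vertical axis, percentage points) at the 604 sites that were not lost, for 215 sites in tRNAs with a lost site (left) and 389 in tRNAs without one (right). Triangles are the 20 sites called higher, all of them on the left.

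Read coverage moved with the losses. At the 96 lost sites the knockout libraries had a median of 5.14 times the covering reads of wild type, and at 85 of them (88.5%) the ratio was over 2, against 3.94% of the 584 remaining sites, whose median was 1.28. In the untreated libraries the median ratio was 0.973 at the lost sites and 1.07 at the remaining sites, and 0 of the 96 were over 2. At the other sites of the same tRNAs the median treated ratio was 1.24, with 17 of the 215 over 2 (7.91%) and the highest at 15.9. The 85 lost sites other than position 28 of tRNA-Cys had a median treated ratio of 4.17 over wild type. For the same 85 it was 3.32 over PUS1 knockout and 2.72 over TRUB1 knockout. The untreated ratios were 0.959, 0.776 and 0.722 in the same order.

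The gain was uneven among tRNAs. It reached 83.7 for tRNA-Val-AAC-5, 62.1 for tRNA-Gln-CTG-5 and 45.6 for tRNA-Val-AAC-4 at position 13, and stood at 2.38 for tRNA-Gly-CCC-2. The 17 position-13 sites with a wild-type level of 80% or more had a median ratio of 2.92, against 15.2 for the 18 sites from 50% to 80% and 11.02 for the 14 below 50%. Across the 49 sites Spearman's rho between wild-type level and ratio was -0.696, a description only, since both share the wild-type coverage. Among the rises 6 of 20 had a ratio over 2, with position 28 of tRNA-Gln-CTG-5 at 15.9 and that of tRNA-Arg-TCT-1 at 4.42, while position 39 of tRNA-Tyr-GTA-3 was at 1.58. The part of this difference in coverage in the levels was not tested.

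**Figure D5:**
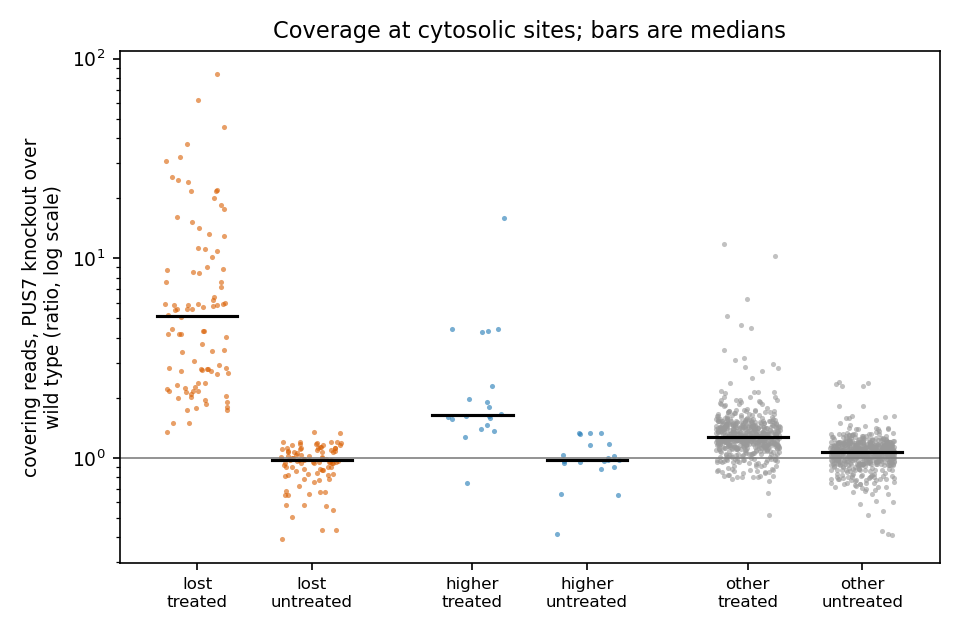
Covering reads in PUS7 knockout over wild type (vertical axis, ratio on a log scale) at lost sites, sites called higher and the 584 other sites, for the 2 treated libraries summed (left of each pair) and the untreated library (right). Bars are medians: 5.14, 1.64 and 1.28 in treated and 0.973, 0.975 and 1.07 in untreated libraries.

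The positions of other synthases had few calls beyond the sites named above. At position 55 the mean over 238 sites was 79.8% ± 2.39 in the knockout and 78.6% ± 0.0486 in wild type, with 0 sites lower and 1 higher. tRNA-Gly-TCC-4, which lost position 13, had 31.6% and 36.3% at position 55 in the knockout libraries and 55.7% and 70.1% in wild type, without reaching a call at 79 and 87 wild-type reads (adjusted p = 0.111). tRNA-Val-AAC-3, among the 584 by points, rose by fraction at position 55, with 14.1% and 13.99% in the knockout libraries and 6.94% and 5.98% in wild type (adjusted p = 0.00925). At positions 27 and 28 the mean over 130 sites was 39.1% ± 0.529 in the knockout and 38.1% ± 0.103 in wild type, with 7 higher by points and 11 lower by fraction. At positions 38 and 39 the mean over 137 sites was 58.8% ± 0.763 in the knockout and 54.3% ± 0.112 in wild type, with 12 higher and 0 lower. Weighted by reads, the difference was -4.62 points at 27 and 28 and -0.104 points at 38 and 39, and 3.17 points at 55. In the variable loop (24 sites), the acceptor stem (9 sites), the rest of the T arm (2 sites) at position 34 (9 sites) and at positions 8 and 40 (16 sites), 0 sites were called by either rule. In the T arm position 61 of tRNA-Arg-CCT-5, a tRNA that lost position 50, had 80.0% and 77.5% in the knockout libraries and 67.5% and 63.4% in wild type (adjusted p = 0.0635). It was called higher by Fisher's exact test and without either knockout library, and its untreated level was 38.8% in the knockout and 37.6% in wild type.

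The authors' deposited table labels 100 of the 705 cytosolic sites as dependent on PUS7. All 96 sites called lower by fraction are among them, position 28 of tRNA-Cys included. The other 4 were not called: position 20 of tRNA-Asn-GTT-1, tRNA-Asn-GTT-2 and tRNA-Asn-GTT-3 kept 86.4%, 87.2% and 90.1% of wild type, and position 38 of tRNA-Gly-GCC-5 kept 90.4%. In the 3 tRNA-Asn sites the untreated level was already 35.5% to 43.0% in the knockout, against 34.2% to 40.1% in wild type. The authors' deposited table labels none of the 35 mitochondrial sites as dependent.

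Mitochondrial tRNA showed no call in either direction. Over 33 sites in 15 tRNAs the levels in the knockout lay between 69.9% and 146% of wild type, and the differences between -3.62 and 6.72 points, with a median of 0.190. The limma-moderated test called 0 sites (0% of 33), while 4 sites had p under 0.05 before adjustment. The alternatives, Fisher's exact test and a limma fit of the levels themselves, also called 0. None of the listed sites was at position 13 or 35. The bases around 4 of them are shown from GENCODE release 29 (GRCh38), 5′ to 3′ on the tRNA's own strand, with the listed base or bases in capitals. They are the 3 with the smallest p and the 1 whose uridine lies in a PUS7-type sequence.
mt-TRNV position 39: caacttacacTTaggagatttc
mt-TRNC positions 27 and 28: gattttcataTTgaattgcaaa
mt-TRNF position 68: catcaccccaTaaaca
mt-TRNN position 55: tgtttgtgggTTTaagtcccatt
Position 39 of mt-TRNV (chrM:1638-1639, plus strand) had 53.1% and 50.9% in the knockout libraries and 54.6% and 54.5% in wild type (unadjusted p = 0.00157 and adjusted p = 0.0519 in the limma-moderated model). Positions 27 and 28 of mt-TRNC (chrM:5804-5805, minus strand) had 77.3% and 73.3%, against 68.0% and 69.2% (adjusted p = 0.105). Position 68 of mt-TRNF (chrM:642-642, plus strand) had 12.99% and 11.98%, against 10.9% and 9.37% (adjusted p = 0.119).

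The motif searched was TNTAA or TNTAG on the tRNA strand, with the third letter as the uridine, and 25 of the 456 T in the 22 mitochondrial tRNA genes lie in it (5.48%). Among the listed sites it was found at position 55 of mt-TRNN (chrM:5674-5676, minus strand), where the last of the 3 capital bases fits. That site had 75.9% and 55.8% in the knockout libraries and 62.2% and 60.3% in wild type, so the knockout libraries lay on both sides of wild type.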

How the data were processed

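Per the file headers, the authors' deposited tables give counts of reads with a deletion and of reads covering each site, per library, with the authors' dependence label beside them. Per the submitters' processing notes, cutadapt, UMI-tools 1.0.0, BWA, SAMtools 1.14 and GRCh38 were used. How deletions were counted and sites listed is not given in the sources used here. The knockout tables list the wild-type sites, whose lowest tested level is 5.41%, so sites gained only in the knockout are not seen.

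Levels are deletions over covering reads (mean ± SD, n = 2). For a group of sites the SD is of the 2 library averages, which can hide spread at single sites. Sites past the minimum of 20 reads were fitted with a quasi-binomial model whose dispersion was moderated by limma 3.58.1 (squeezeVar, R 4.3.3) and kept at 1 or more, with a two-sided F test adjusted over the table. Calls need an adjusted p under 0.05 with 10 points, or with at most 0.5 or at least 2 times the wild-type level. On simulated data 84.8% of 15-point changes were called in the 700-site table and 80% in the 33-site table. These changes were placed at wild-type levels between 20% and 80%, with a fixed spread between replicates, and called by points. Changes at lower levels and the fraction rule were not simulated. Named sites are the largest and smallest changes per position, the largest rises, the highest low sites and the uncalled sites at 13, 35 and 50; others, such as tRNA-Gly-TCC-2 position 13, tRNA-Val-AAC-4 and tRNA-Arg-CCG-2, were chosen after their values were seen. Members and lists were chosen with earlier results of these data known. Replicates differed beyond counting error at 56.1% of cytosolic sites in the knockout and 31.3% in wild type. Near-identical isodecoders may share reads, and their values are then uncertain: 91 of 700 tested sites have one with covering reads within 2% in all 4 libraries.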

Additional observations from a re-analysis of the deposited data

How the results depend on the processing

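Directions and counts of calls mostly held: coverage minimum, untreated subtraction, limma on points, Fisher's exact test and the fraction thresholds moved no count of losses against wild type by over 1.5 times. Leaving out a library gave 70 to 78 losses and 9 to 28 rises by points, and 74 to 96 losses and 8 to 12 rises by fraction. Against TRUB1 knockout it gave 78 to 84 lower and 59 to 117 higher, and against PUS1 knockout 95 to 113 lower and 105 to 136 higher. For mitochondrial sites every alternative gave 0. Summing reads over isoacceptor and position tests 174 units and gave 23 lower and 6 higher by points and 27 lower and 2 higher by fraction, 24 and 21 against TRUB1 knockout, and 28 and 27 against PUS1 knockout. A 20-point rule left 13 rises, and 48 sites higher than TRUB1 knockout; a 10-times rule left 0 rises. Position-group differences (knockout minus wild type, points) without one library were -64.1 (both ends) at 13, -71.9 to -71.0 at 35, -19.8 to -18.6 at 50, -35.8 to -35.6 at 20, 0.604 to 1.35 at 27/28, 4.01 to 5.09 at 38/39, and -0.492 to 2.89 at 55, the negative end without knockout replicate 2, against 1.20 with all. Weighting by reads gave -75.4 at 13, -18.7 at 35, -32.3 at 50 and -30.7 at 20, and reversed 27/28 to -4.62 and 38/39 to -0.104, with 3.17 at 55; a minimum of 100 reads gave -66.1 at 13 and -70.6 at 35, and subtracting untreated levels -35.2 at 20. The cause was not tested.

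The deviations of same-numbered libraries correlate at 0.0798 over cytosolic sites. That value cannot tell whether same-numbered libraries were processed as pairs. With a replicate block 74 sites were lower and 15 higher by points, and 87 and 9 by fraction. Of the 5 uncalled position-50 sites all but tRNA-Asn-GTT-9 changed sign when a library was left out, with differences from -0.130 to 0.105 for tRNA-Asn-GTT-6, -2.41 to 2.60 for tRNA-Cys-GCA-15 (-1.44 without wild-type replicate 2), -2.36 to 3.62 for tRNA-Cys-GCA-16 and -0.763 to 0.0816 for tRNA-Cys-GCA-4. tRNA-Asn-GTT-6 was at 0.0497 with untreated levels subtracted and at 0.0410 without knockout replicate 1.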
